A study of Danio rerio with 26 samples.

Results

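Maternal transcripts that had largely disappeared from zebrafish (Danio rerio) embryos by 4 hours post fertilisation (hpf) were described across early development, across oocyte growth and after knockdown of znf281b. They were chosen from embryo RNA levels in TPM (the unit of the deposited tables, each gene's share of a library's transcripts): a mean of at least 20 TPM at 0 hpf, and a mean at 4 hpf of at most 0.25 of the mean at 2 hpf. Of the 32520 genes in the embryo table, 7070 reached 20 TPM at 0 hpf and 320 of these also met the fall. The rule set aside names starting with znf, zp, cldn or ube2, which removed cldnd, cldng, ube2t, znf592 and znf687a and left 315 genes, or 4.455% of the 7070. The values at 0, 2 and 4 hpf chose these genes. Calls in comparisons that use those libraries, 6 against 4 hpf included, are therefore counts that describe the genes and support nothing.

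All fish carried the background that the labels give as AB, TF and TLF. Embryos were sampled at 0 hpf (the 1-cell stage), 2, 4 and 6 hpf, with 3 libraries a time and 20 pooled, dechorionated embryos a library. Oocytes were sampled at stages I, II, III and IV of growth, with 2 libraries a stage and 50 pooled oocytes a library. The knockdown embryos were collected at 4 hpf and are labelled znf281b KD or pCas13d alone, with 3 libraries each. Cas13d cleaves RNA at sites chosen by a guide RNA. The label pCas13d alone implies that the znf281b KD embryos carry it too, so neither group is taken as untreated embryos. The labels do not state the guides, the number of embryos per library or the origin of the knockdown replicates, so p-values there measure only the spread between these libraries, which may be technical.

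A zebrafish egg is loaded during oogenesis with messenger RNA that runs the first cell cycles while the embryo's own genome is silent. Those maternal messages are then removed, at first by decay machinery already present in the egg and later also by products of the newly active genome, among them the microRNA miR-430, which speeds deadenylation of its targets. Removal frees the embryo from oocyte instructions for meiosis and storage, and some genes are transcribed again from the zygotic genome.

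The targeted gene followed its label: znf281b stood at 252 ± 27.9 TPM in pCas13d alone and 156 ± 13.6 TPM in znf281b KD (SD, n = 3 each), a log2 change of -0.69 ± 0.11 (SE, limma, adjusted p = 0.00991). All 6 oocyte marker genes were present, but not all held their level from stage I to IV. The means of bmp15 were 208 and 160 TPM and those of buc 1139 and 1438 TPM, whereas zar1 had 1545 and 144.6 TPM, gdf9 57.4 and 7.07 TPM, figla 58.4 and 22.96 TPM and ddx4 118 and 62.7 TPM. Libraries of a group correlated across genes at r of 0.9755 or more on the log2(TPM + 1) scale. The third 4 hpf library stood apart: it was the highest of the 3 for 264 of the 315 genes, with a median of 11.07 TPM over them against 7.89 and 6.75 TPM in the other 4 hpf libraries. Without it, 518 genes met the rule, of which 313 were among the 315. TPM keeps no read depth, so depth is unknown and low values are the least precise.

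The cleared transcripts were moderately abundant in the egg and nearly flat until 2 hpf. Their median level was 50.1 TPM at 0 hpf, 45.15 TPM at 2 hpf, 8.717 TPM at 4 hpf and 3.573 TPM at 6 hpf. At 0 hpf 70 of them were at 100 TPM or more and 157 were under 50 TPM. Described further on are 13 genes that were low at every oocyte stage, with a 0 hpf mean over 5 times each oocyte mean. Leaving these out, the cleared transcripts made up 2.83% ± 0.0528 of all TPM at 0 hpf, 2.50% ± 0.103 at 2 hpf, 0.475% ± 0.128 at 4 hpf and 0.246% ± 0.0176 at 6 hpf (SD, n = 3). The median ratio of 4 to 2 hpf was 0.2029, against 0.6717 over all 7070 genes, and 31 genes were at 0.125 or less. For 312 of the 315, every 4 hpf library lay below every 2 hpf library. The ratio limit nearly fixed this count, which was not made for other genes, and nothing is read from it. The exceptions were CT583728.8, CT583728.23 and wu:fi09b08, each with values that scattered within a time. TPM are relative to the whole library, and between 2 and 4 hpf the median tested gene itself shifted by -0.43 on the log2 scale. When libraries were scaled to remove that shift, by medians of ratios, 66 genes met the rule, all of them among the 315. In bulk embryos, fewer cells holding a transcript and less of it per cell cannot be told apart.

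Before 2 hpf little was lost. Of the 315 genes, 289 had a lower mean at 2 than at 0 hpf, with a median ratio of 0.8835 against 0.9907 over all 7070. Of the 313 that could be tested, hbegfa and MZT1 were called lower at 2 hpf at an adjusted p under 0.05 and at least a 2-fold change (limma on log2(TPM + 1)), and 0.0122% of all 16328 tested genes were called so. These 0 and 2 hpf libraries also chose the genes, so nothing is read from these calls. hbegfa, which encodes a heparin-binding ligand of the EGF receptor, stood at 46.5, 39.1 and 39.2 TPM at 0 hpf and at 17.9, 17.5 and 16.1 TPM at 2 hpf. MZT1, which encodes a small protein of the gamma-tubulin ring complex, stood at 43.8, 45.5 and 46.3 TPM at 0 hpf and at 17.9, 16.8 and 18.6 TPM at 2 hpf. In both genes every 2 hpf library was below every 0 hpf library. The fall from 2 to 4 hpf is the rule itself: the 313 calls lower there were fixed by it, and nothing is read from them beside the 17.5% of all tested genes.

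Egg-specific regulators were among the abundant cleared transcripts. btg4 (ENSDARG00000035171), whose product in mouse oocytes brings the CCR4-NOT deadenylase to maternal messages, stood at 857, 982 and 952 TPM at 0 hpf, 860, 777 and 759 TPM at 2 hpf, 93.7, 60.4 and 144 TPM at 4 hpf, and 3.59, 4.10 and 4.98 TPM at 6 hpf. org (ENSDARG00000076474), an oogenesis-related gene, stood at 706, 762 and 763 TPM at 0 hpf, 74.5, 57.6 and 119 TPM at 4 hpf and 6.34, 9.29 and 7.70 TPM at 6 hpf. zar1l (ENSDARG00000055973), a relative of the zygote arrest gene zar1, stood at 512, 543 and 524 TPM at 0 hpf, 51.3, 34.2 and 76.9 TPM at 4 hpf and 4.39, 5.15 and 5.55 TPM at 6 hpf. In these 3 genes the libraries of 0, 4 and 6 hpf did not overlap between times, and the third 4 hpf library was the highest of its time. mos (ENSDARG00000069744), the kinase that holds the egg in meiotic arrest, stood at 195, 207 and 215 TPM at 0 hpf, 24.9, 18.7 and 28.9 TPM at 4 hpf and 1.42, 2.07 and 2.52 TPM at 6 hpf. zar1 itself was no member: its mean was 28.4 TPM at 2 hpf and 22.1 TPM at 4 hpf, a ratio of 0.7788.

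Both germ plasm genes among them were of this kind. buc2l (ENSDARG00000096628), a relative of the germ plasm organiser gene bucky ball, stood at 181, 155 and 165 TPM at 0 hpf, 143, 146 and 148 TPM at 2 hpf, 30.7, 23.6 and 52.3 TPM at 4 hpf and 1.23, 2.48 and 2.39 TPM at 6 hpf. ca15b (ENSDARG00000040510), a carbonic anhydrase gene whose RNA marks zebrafish germ plasm, stood at 673, 740 and 713 TPM at 0 hpf, 140, 153 and 258 TPM at 4 hpf and 15.5, 28.6 and 26.5 TPM at 6 hpf. Its ratio of 0.2495 put it barely inside the rule. The other 14 germ plasm genes at 20 TPM or more stayed outside it, with buc at a ratio of 0.3384 and ddx4 at 0.7218.

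**Figure D1:**
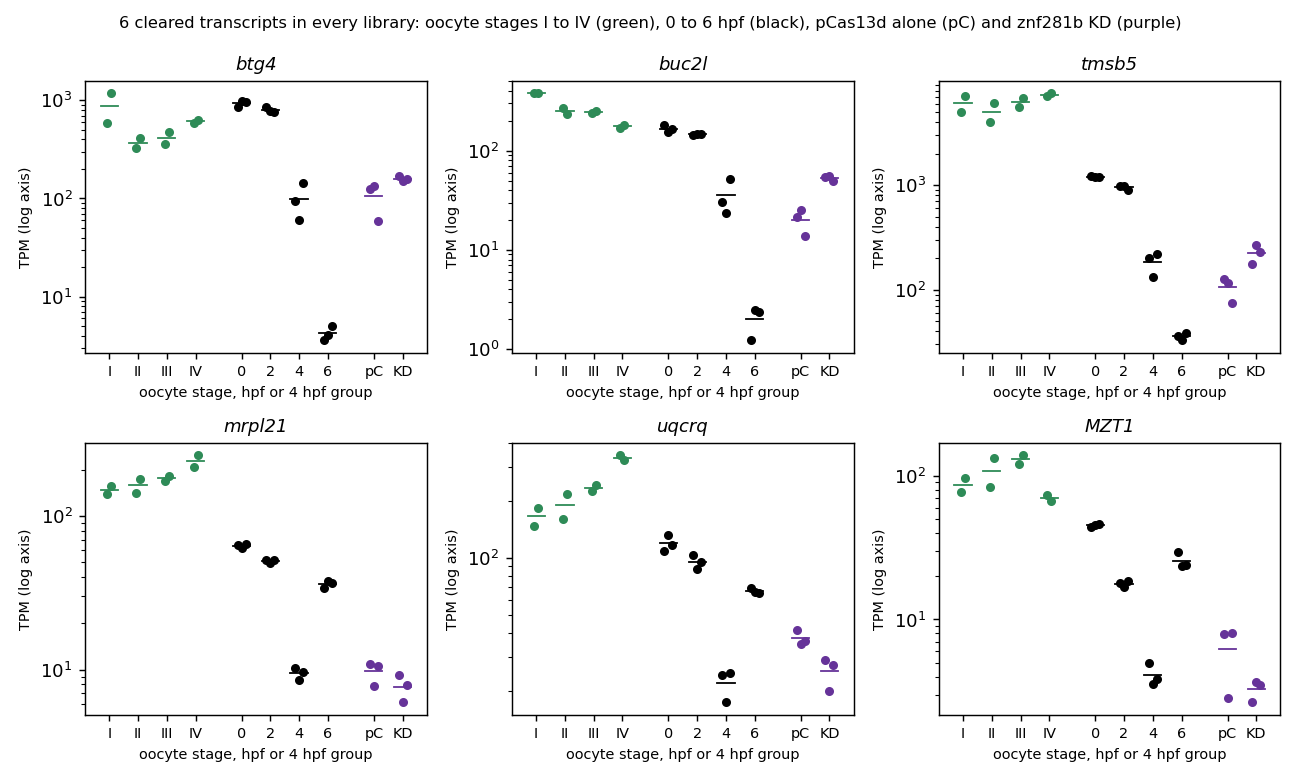
TPM on a log axis in every library for btg4, buc2l, tmsb5, mrpl21, uqcrq and MZT1, with points for libraries and bars for group means. Green points are oocyte stages, black points embryo times and purple points the 4 hpf groups pCas13d alone (pC) and znf281b KD. btg4, buc2l and tmsb5 were lower still at 6 hpf, while mrpl21, uqcrq and MZT1 were higher at 6 than at 4 hpf in every library.

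Among the most abundant were also genes of the cytoskeleton, the cell surface and stress handling. tmsb5 (ENSDARG00000093886), which encodes an actin-monomer-binding thymosin, stood at 1219, 1202 and 1194 TPM at 0 hpf, 985, 972 and 898 TPM at 2 hpf and 203, 132 and 221 TPM at 4 hpf. thy1, which encodes a lipid-anchored surface glycoprotein, stood at 1398, 1179 and 1288 TPM at 2 hpf and 251, 238 and 312 TPM at 4 hpf. mt2, a metallothionein gene, stood at 890, 756 and 836 TPM at 2 hpf and 119, 85.1 and 131 TPM at 4 hpf. In each, all 4 hpf libraries lay far below all 2 hpf libraries. map1lc3c, an LC3 gene of autophagy, had a mean of 514 TPM at 2 hpf, 119 TPM at 4 hpf and 6.13 TPM at 6 hpf. slbp2, which encodes an oocyte protein that binds the stem-loop of histone messages, had a mean of 455 TPM at 0 hpf and 7.10 TPM at 6 hpf. CR790368.1, a transcript named only by its clone, had 843 TPM at 0 hpf and 6.32 TPM at 6 hpf.

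Chromosome segregation and repair genes formed another group. birc5b (ENSDARG00000055655), a gene for survivin of the chromosomal passenger complex, stood at 329, 296 and 304 TPM at 2 hpf, 46.3, 38.2 and 68.7 TPM at 4 hpf and 4.33, 6.50 and 7.25 TPM at 6 hpf. cdca9, a borealin-type gene of the same complex, stood at 223, 209 and 201 TPM at 2 hpf, 33.2, 29.5 and 65.7 TPM at 4 hpf and 1.28, 2.03 and 1.65 TPM at 6 hpf. The paralogue birc5a took another course, with 61.4, 60.5 and 59.8 TPM at 2 hpf, a mean of 12.5 TPM at 4 hpf and 32.8, 31.9 and 32.0 TPM at 6 hpf. So 1 survivin gene was nearly gone at 6 hpf while the other stood at 0.4464 of its 0 hpf level. Repair genes included brca2, a gene of homologous recombination, with a mean of 66.9 TPM at 2 hpf and 11.1 TPM at 4 hpf. The checkpoint genes rad17 and rad1, for a clamp loader and a clamp subunit, had means of 44.3 and 42.1 TPM at 2 hpf and 9.92 and 7.63 TPM at 4 hpf.

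Some genes of mitochondria and lysosomes were also cleared. mrpl21 (ENSDARG00000003846), for a protein of the large mitochondrial ribosomal subunit, stood at 52.0, 49.5 and 52.1 TPM at 2 hpf, 10.2, 8.61 and 9.71 TPM at 4 hpf and 34.2, 37.6 and 36.9 TPM at 6 hpf. uqcrq (ENSDARG00000029064), for a subunit of respiratory complex III, stood at 104, 87.7 and 95.2 TPM at 2 hpf, 24.0, 17.4 and 24.6 TPM at 4 hpf and 69.3, 66.1 and 65.5 TPM at 6 hpf. Both dipped at 4 hpf with no overlap between the times given. lamtor3, for a subunit of the Ragulator that tethers mTORC1 signalling to lysosomes, stood at 52.8, 45.9 and 48.3 TPM at 2 hpf, 6.51, 2.81 and 5.93 TPM at 4 hpf and 7.81, 5.91 and 4.88 TPM at 6 hpf. The proton pump gene atp6v0d1 had a mean of 64.4 TPM at 2 hpf and 9.89 TPM at 4 hpf. Its partners atp6v1f and atp6v0b had 54.3 and 39.8 TPM at 2 hpf and 9.92 and 8.05 TPM at 4 hpf.

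Among genes with steady values, those with the lowest ratios had means of 23.9 to 74.8 TPM at 0 hpf. gbgt1l1 (ENSDARG00000025275), a glycosyltransferase-like gene, stood at 31.3, 33.2 and 30.2 TPM at 2 hpf and 1.59, 2.08 and 2.34 TPM at 4 hpf, a ratio of 0.06346. tmem69 and mycbp followed at ratios of 0.09145 and 0.09273, and trub2, which encodes a mitochondrial pseudouridine synthase, at 0.09733. march5 (a mitochondrial ubiquitin ligase), ap3s2 (an AP-3 adaptor subunit), paqr5a (a membrane progestin receptor), zgc:174863 and lamtor3 lay between 0.09876 and 0.1038. The 3 lowest ratios, in CT573256.3 and the pair CT583728.8 and CT583728.23, rest on libraries that do not repeat. CT573256.3 stood at 0.04, 39.5 and 32.2 TPM at 0 hpf. CT583728.8 and CT583728.23 each had 0.96, 86.3 and 1.00 TPM at 0 hpf.

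These belong to 13 genes that were low at every oocyte stage, with a 0 hpf mean over 5 times each oocyte mean. They comprise 8 transcripts named after clone CT583728, BX537263.3, BX548011.3, CT573256.3, trmt9b and zgc:162879. CT583728.1, the most abundant of the 315 by its mean, stood at 2025, 12018 and 1830 TPM at 0 hpf and 1485, 1809 and 1872 TPM at 2 hpf, but at 2.28 and 2.32 TPM in stage I oocytes and 23.6 and 31.4 TPM at stage IV. BX537263.3 stood at 1466, 6818 and 996 TPM at 0 hpf and between 0.00 and 2.52 TPM in all 8 oocyte libraries. The second 0 hpf library was the high one for both, and it held 5.161% of its TPM in the 315 genes against 3.244% and 3.261% in the others. Of the CT583728 transcripts, 6 form pairs with the same values at 2 and 4 hpf (CT583728.11 and CT583728.13, which differ in the second 0 hpf and the third 6 hpf library, CT583728.14 and CT583728.25, and CT583728.8 and CT583728.23), so their reads may be shared between near copies and their single values are uncertain. trmt9b, a tRNA methyltransferase-like gene, repeats well at 99.0, 102 and 110 TPM at 0 hpf, with 18.4 and 19.1 TPM in stage IV oocytes.

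The share of genes cleared differed widely between gene lists, beside 4.455% over all genes at 20 TPM or more. Lists were built from name patterns with earlier results of these data known, and give counts only. Of oocyte-specific and maternal-effect genes, 5 of 17 were cleared (btg4, ca15b, mos, org and zar1l). The list of lysosome, Ragulator and V-ATPase genes gave 7 of 36, the mitochondrial ribosome 11 of 63, apoptosis 3 of 18 (baxb, birc5a and birc5b) and DNA repair 6 of 38. Nuclear-encoded oxidative phosphorylation gave 6 of 80, mitochondrial import and cristae 1 of 32 and ER, Golgi and vesicle traffic 8 of 134. No gene was cleared among 80 cytosolic ribosomal proteins, 63 splicing and Sm proteins, 43 proteasome subunits, 41 DNA replication genes and 13 mitochondrially encoded genes. Of 59 genes of deadenylation, decapping and RNA decay, btg4 was the 1 cleared.

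**Figure D2:**
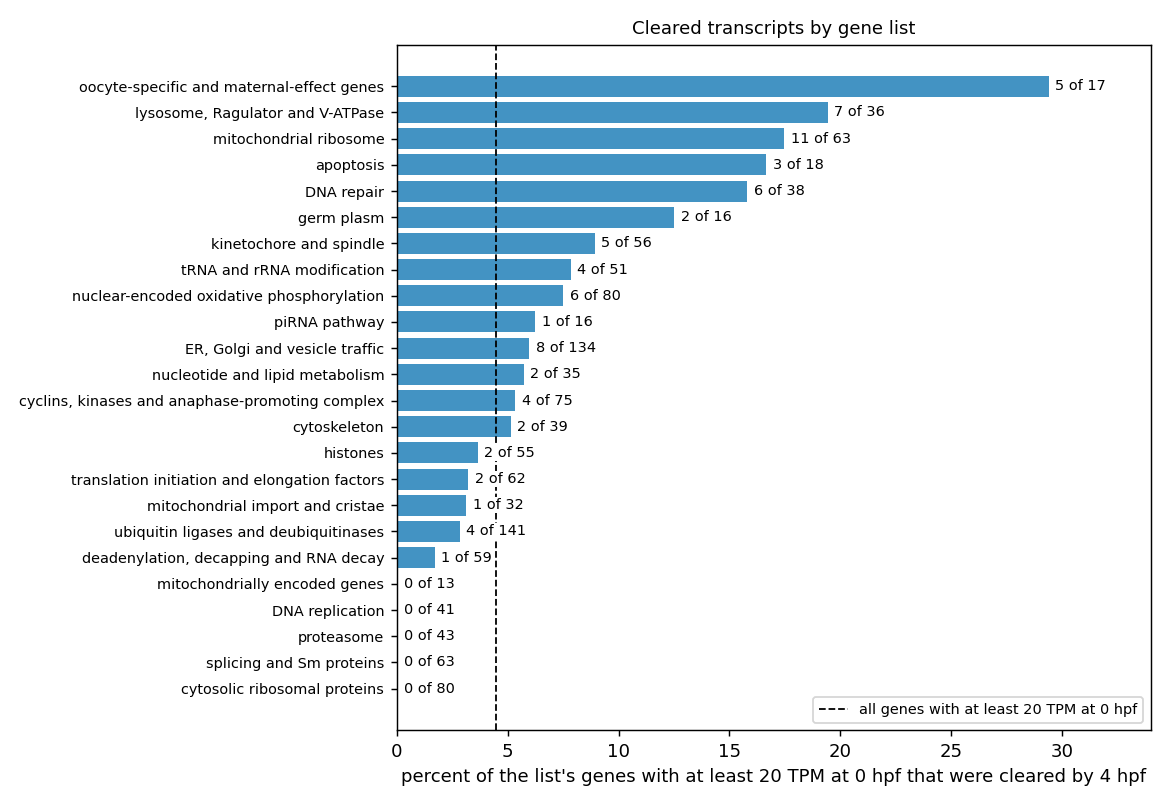
Bars give the percentage of each list's genes at 20 TPM or more at 0 hpf that were cleared by 4 hpf, for lists with at least 10 such genes, with counts beside them. The dashed line is the 4.455% over all 7070 genes, and the bars run from 0% for cytosolic ribosomal proteins to 29.4% for oocyte-specific and maternal-effect genes.

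The cytosolic and mitochondrial translation machineries thus differed at the level of the whole list: the median ratio of 4 to 2 hpf was 0.968 over the 80 cytosolic ribosomal protein genes and 0.3921 over the 63 mitochondrial ones. Proteasome genes had a median of 0.6917 and DNA replication genes 0.6489, close to the 0.6717 of all genes. Further groups were noticed only after the values had been seen. A V-ATPase and Ragulator list gave 9 of 23 cleared genes, among them atp6ap1b and atpv0e2, which the earlier lysosome list did not hold. Cleared too were 6 of 13 genes of homologous recombination (among them blm, brca2, rmi1 and top3a) and 3 of 5 of the chromosomal passenger complex. Likewise cleared were 3 of 6 COMMD genes and 3 of 10 TRAPP tethering genes. A list of centromere and kinetochore names gave 7 of 26, with cenpj on the kinetochore and spindle list too. Shelterin genes of the telomere gave 2 of 4 (acd and tinf2). Also cleared were 3 of 9 histone chaperone and histone message-binding genes, 3 of 20 autophagy genes and 2 of 4 importin alpha genes. The oocyte importin gene kpna7 had a mean of 207 TPM at 2 hpf, 46.5 TPM at 4 hpf and 2.77 TPM at 6 hpf, and its relative kpna2 had 429, 107 and 122 TPM. The list of documented miR-430 targets in zebrafish had only 3 genes at 20 TPM or more. None was cleared, and their median ratio was 0.3778, beside the 0.6717 of all genes.

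After 4 hpf the cleared transcripts were split into 3 courses by their calls. The course without a call holds genes that missed the threshold. Some of these shifted, such as acd by -0.99 and anapc13 by 0.90 on the log2 scale. From 4 to 6 hpf, 157 were called lower, 33 higher and 123 not called, with 2 untested (limma, adjusted p under 0.05 and at least 2-fold). Over all tested genes 34.2% were called lower and 13.4% higher, and the 4 hpf libraries also chose the genes, so nothing is read from the counts. The split depends on scale, because the median of all tested genes shifted by -0.56 on the log2 scale. With median-of-ratios scaling 107 were called lower and 74 higher, beside 19% and 27.6% of all tested genes. All 33 and 107 of the 157 kept their call in it. At 6 hpf 57 genes were under 1 TPM and 145 were at 5% or less of their 0 hpf level, whereas 10 were back to at least 0.5 of it (MZT1, atp6ap1b, eif1ad, mrpl20, mrpl21, nsl1, ppie, stap2b, surf6 and uqcrq).

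The same description by gene list, on few genes and with no test between lists, was as follows. Over all tested genes 34.2% were called lower and 13.4% higher, or 19% and 27.6% with median-of-ratios scaling. All 5 oocyte-specific genes and both germ plasm genes, with ca15b on both lists, were called lower at 6 hpf, under either scaling. The log2 difference of 6 from 4 hpf was -4.18 ± 0.23 (SE) for btg4 and -3.22 ± 0.20 for org. Of the 11 mitochondrial ribosomal genes, none was called lower and 5 were called higher (10 with median-of-ratios scaling), and of the 6 oxidative phosphorylation genes 3 were called higher and none lower. The difference was 1.83 ± 0.09 for mrpl21 and 1.58 ± 0.13 for uqcrq. Of the 5 genes that name patterns put on the kinetochore and spindle list, MZT1, mis18a and cenpx were called higher and kif3a lower. With median-of-ratios scaling 3 were called higher and none lower.

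MZT1 (ENSDARG00000096668) had the largest difference of the 33: it stood at 4.96, 3.54 and 3.82 TPM at 4 hpf and 29.5, 23.7 and 23.9 TPM at 6 hpf, a log2 difference of 2.39 ± 0.13. hspe1, for the mitochondrial co-chaperonin, came next with 8.27, 6.49 and 11.5 TPM at 4 hpf and 49.3, 45.7 and 29.2 TPM at 6 hpf. It was picked out after its values were seen. In both genes every 6 hpf library exceeded every 4 hpf library. Of the 7 genes on the lysosome, Ragulator and V-ATPase list, 1 was called lower, 6 were not called and none was higher. With median-of-ratios scaling 3 were called higher, beside 27.6% of all tested genes. The V-ATPase and Ragulator list added after values were seen held 9. Of these, atp6ap1b was called higher and 2 were lower, beside 13.4% and 34.2% of all tested genes. With median-of-ratios scaling 4 of the 9 were higher and 2 lower. The 8 vesicle traffic genes had 5 calls lower and none higher, or 3 lower and 2 higher under that scaling.

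**Figure D3:**
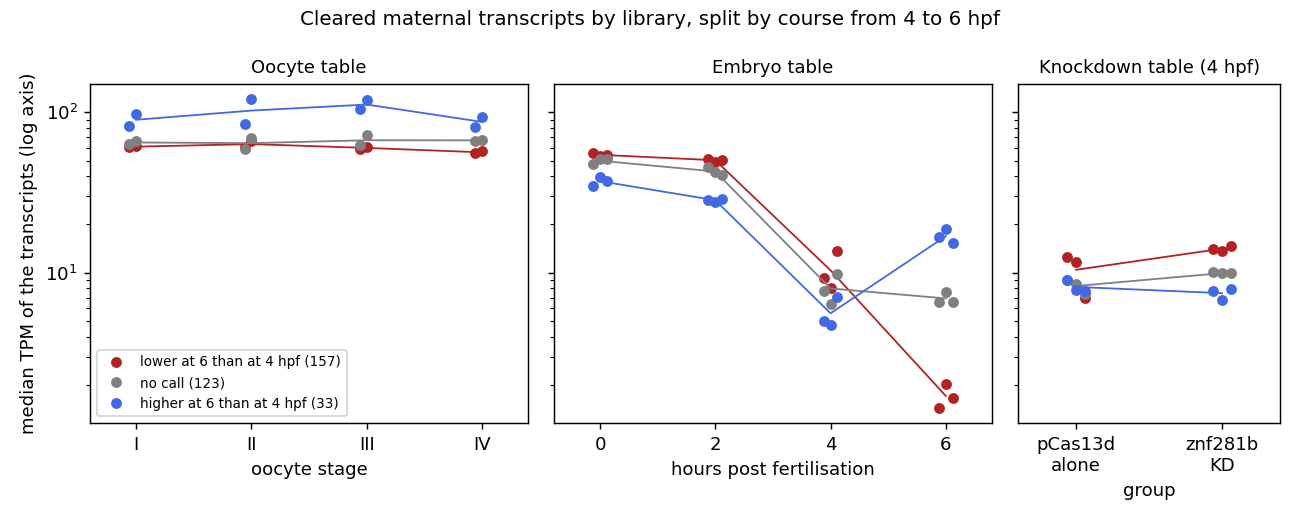
Median TPM per library on a log axis over the transcripts that were called lower, called higher or not called from 4 to 6 hpf, in the 3 separately normalised tables. Points are libraries and lines join group means. All courses dropped to between 4.71 and 13.7 TPM at 4 hpf. At 6 hpf they stood at 1.44 to 2.03 (lower), 6.54 to 7.61 (not called) and 15.3 to 18.6 TPM (higher), a split made by those calls.

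The pCas13d alone libraries gave values at the same age from libraries the rule had not used, although the ratios below still divide by the 2 hpf mean that the rule used. In them 198 of the 315 genes (62.9%) were at 0.25 or less of the embryo table's 2 hpf mean and 302 at 0.5 or less, with a median ratio of 0.2062. Of the 6750 other genes at 20 TPM or more, 557 (8.25%) were at 0.25 or less, with a median ratio of 1.192. These ratios cross tables that were normalised separately and sequenced on different machines, so they were not tested. The labels also do not give the library preparation of the pCas13d alone libraries. The 13 genes above 0.5 were C7H16orf87, bmi1b, cars2, cobll1a, ifrd2, josd2, lnpa, mrpl40, ppie, rab11al, thy1, tmem263 and trappc5. thy1 stood at 762, 720 and 525 TPM in pCas13d alone, above its 251, 238 and 312 TPM in the 4 hpf libraries of the time course. rab11al, a recycling-endosome GTPase gene, stood at 23.3, 27.0 and 16.9 TPM in pCas13d alone and at 8.96, 7.37 and 12.3 TPM in the time course. In both genes the pCas13d alone libraries were the higher ones. The 2 sets of 4 hpf libraries also differed widely in genes outside the rule. The miR-430 gene copies summed to a mean of 35050 TPM in the time course and 0 TPM in pCas13d alone. The mean of nanog was 532 TPM in the time course and 1552 TPM in pCas13d alone, and that of actb1 1241 and 726 TPM. The cause of these differences was not tested.

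In the znf281b knockdown the cleared transcripts leaned upward, and few passed the test. Of 302 tested, 241 had a higher and 61 a lower mean log2 level in znf281b KD, with a median log2 change of 0.31 against 0.09 over all 15068 tested genes. At an adjusted p under 0.05 (limma, no fold minimum), 17 were called higher and 2 lower, that is 5.63% and 0.662%, beside 6.32% and 3.05% over all tested genes. The share called higher was thus near that of all genes and below the 9.01% of the other genes at 20 TPM or more at 0 hpf, a difference that was not tested. With median-of-ratios scaling 8 were called higher and 6 lower. The lean was not confined to these genes: maternal genes with a ratio of 0.25 to 0.5 had a median of 0.33 (15.2% called higher), those of 0.5 to 0.75 one of 0.19 (12.3%), those of 0.75 to 1 one of -0.02 and those over 1 one of -0.20. Genes called at least 4-fold higher at 4 than at 2 hpf had a median of -0.79, with 232 of 492 called lower and 20 higher. TPM are relative, so these shifts are not independent of each other.

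The members' level also moved with single libraries. The third pCas13d alone library was the lowest of its 3 for 226 of the 315, with a median of 7.26 TPM against 10.1 and 9.90 TPM, and the znf281b KD libraries stood at 11.6, 11.0 and 11.6 TPM. Leaving it out, the members' median log2 change was 0.15. The number called higher was 17 without it, 5 without the first and 40 without the second pCas13d alone library, and 3 or 4 without any 1 of the znf281b KD libraries.

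The direction in the knockdown differed with the later course of the transcript. Of 154 tested genes called lower at 6 hpf, 141 leaned upward, with a median of 0.47, and 15 were called higher and none lower. Of the 33 called higher at 6 hpf, 23 leaned downward, with a median of -0.14, and 1 (arl14ep) was called lower and none higher. The 115 without a call had a median of 0.27. Without the third pCas13d alone library these medians were 0.21, -0.16 and 0.15, and with median-of-ratios scaling 0.38, -0.22 and 0.18. Other genes at 20 TPM or more parted likewise, with medians of 0.27 for those called lower at 6 hpf, -0.22 for those called higher and 0.01 for the rest, so the pattern is not particular to cleared transcripts. Of the other genes called lower at 6 hpf, 83.31% leaned upward and 14.75% were called higher, beside 91.56% and 9.74% of the cleared ones. Of those called higher at 6 hpf, 9.125% were called lower in the knockdown, beside 3.03% of the cleared ones. The difference between courses was not tested.

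**Figure D4:**
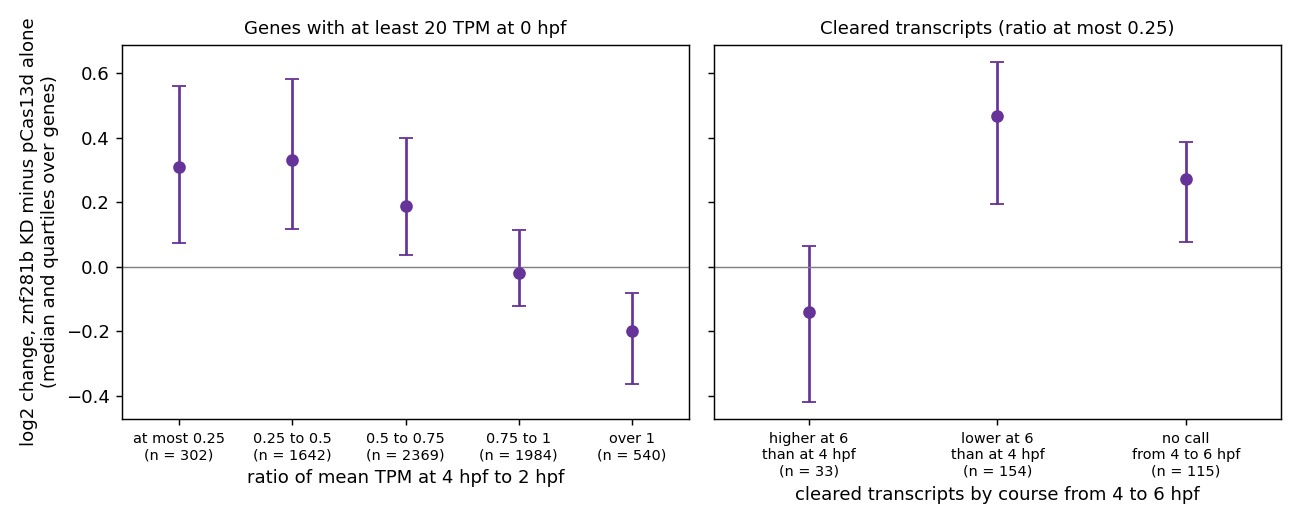
Median log2 change between znf281b KD and pCas13d alone, with quartiles over genes, for classes of the 4 to 2 hpf ratio among genes at 20 TPM or more (left) and for the courses of the cleared transcripts from 4 to 6 hpf (right). The medians run from 0.31 at a ratio of at most 0.25 to -0.20 above 1, and from -0.14 in genes higher at 6 hpf to 0.47 in genes lower at 6 hpf.

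The largest rise among called genes was in buc2l, at 21.3, 25.1 and 14.0 TPM in pCas13d alone and 53.8, 56.1 and 49.5 TPM in znf281b KD, a log2 change of 1.39 ± 0.20 (adjusted p = 0.00728). hsd3b7, which encodes a sterol dehydrogenase of bile acid synthesis, stood at 19.3, 20.4 and 9.11 TPM against 33.8, 36.3 and 36.0 TPM (1.15 ± 0.27, adjusted p = 0.0348). tmsb5 stood at 127, 116 and 74.01 TPM against 176, 268 and 227 TPM (1.09 ± 0.22, adjusted p = 0.0219). In all 3 genes the groups did not overlap and the third pCas13d alone library was the lowest. arpc5b, for a subunit of the actin-nucleating Arp2/3 complex, stood at 6.65, 5.89 and 6.30 TPM against 14.1, 13.2 and 14.7 TPM (1.04 ± 0.15, adjusted p = 0.00749). fmo5, a flavin-containing monooxygenase gene, stood at 10.4, 11.0 and 14.2 TPM against 24.4, 25.3 and 25.6 TPM (1.03 ± 0.15, adjusted p = 0.00788). In arpc5b and fmo5 the groups did not overlap either, and the third pCas13d alone library was not the lowest. Of the 5 genes, buc2l, arpc5b and fmo5 kept their call in all 13 alternative settings, whereas hsd3b7 lost it in 6 (adjusted p 0.0057 to 0.114) and tmsb5 in 3 (0.0176 to 0.0807). The other 12 genes called higher rose by between 0.58 (rab11fip1a) and 1.01 (zgc:56231).

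The falls called were in arl14ep and hells. arl14ep, an effector gene of the GTPase ARL14, stood at 33.7, 31.9 and 31.1 TPM in pCas13d alone and 19.4, 18.1 and 18.0 TPM in znf281b KD (-0.77 ± 0.12, adjusted p = 0.00892). hells, a chromatin remodeller gene, stood at 32.0, 36.4 and 29.6 TPM against 20.4, 21.9 and 24.9 TPM (-0.52 ± 0.14, adjusted p = 0.0486). The groups did not overlap in either gene. arl14ep lost its call in 1 of 13 alternative settings (adjusted p 0.00502 to 0.0554). hells lost its call in 9 of 13 alternative settings, with adjusted p between 0.0246 and 0.176. The oocyte regulators did not pass: btg4 stood at 125, 134 and 58.8 TPM against 169, 152 and 158 TPM (0.67 ± 0.27, adjusted p = 0.156), and org, zar1l, mos and ca15b had changes of 0.26, 0.29, 0.45 and 0.44 with adjusted p of 0.156 to 0.415. The mitochondrial ribosomal members had no call among 11 and a median of 0.19, the same as the 63 genes of their list.

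During oocyte growth the cleared transcripts were as a group level. Their median was 64.3 TPM at stage I, 64.1 TPM at stage II, 66.2 TPM at stage III and 65.7 TPM at stage IV. Leaving out 5 genes under 1 TPM at every stage, 204 had 4 stage means within 2-fold of each other. At stage I 272 were already at 20 TPM or more. From stage I to IV, of 308 tested, 32 were called higher and 52 lower (limma, adjusted p under 0.05 and at least 2-fold), which is 10.4% and 16.9% beside 16.6% and 16.5% of all 16067 tested genes. The median log2 change was 0.05 against -0.07 over all tested genes and -0.27 over the other genes at 20 TPM or more at 0 hpf. The mean was highest at stage IV for 145 genes and at stage I for 76. These counts by stage mean were not made for other genes, so they are not read as particular to the cleared ones.

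More calls were made in the last step than in the earlier ones. Between stages III and IV 11 were called higher and 27 lower (4 to 6 and 17 to 28 with 1 library left out), beside 9.78% and 9.25% of all tested genes. Between stages I and II 1 was called higher (0.156% of all genes) and between II and III 1, wu:fi09b08 (1.99% of all genes), with none lower. Both single calls were lost in several alternative settings. Markers of ovarian follicle cells were higher at the later stages: 16 genes summed to 334 to 365 TPM in stage I and 1072 to 1120 TPM in stage IV libraries, and 17 blood, endothelial and immune markers to 24.96 to 30.9 and 399 to 1227 TPM. None of these markers was among the 315, and their part in the oocyte values was not tested. Per the labels' protocols, stage IV oocytes were freed mechanically and the other stages with collagenase, so stage and isolation cannot be told apart.

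The largest fall from stage I to IV was in casd1 (ENSDARG00000023900), a sialic acid O-acetyltransferase gene, at 142 and 154 TPM at stage I, 98.7 and 75.6 TPM at II, 87.0 and 82.5 TPM at III and 14.5 and 18.1 TPM at IV, a log2 change of -3.12 ± 0.19 (adjusted p = 3.65e-05). Yet at 0 hpf it stood at 176, 178 and 174 TPM in the separately normalised embryo table. hmmr, for a spindle-associated hyaluronan receptor, had 197 and 128 TPM at stage I and 19.6 and 30.5 TPM at IV (-2.65 ± 0.28, adjusted p = 0.000283), with 130 to 183 TPM at 0 hpf. stil, a centriole duplication gene, had 35.7 and 30.7 TPM at stage I and 4.85 and 6.22 TPM at IV (-2.39 ± 0.25, adjusted p = 0.000261), with 70.4 to 77.8 TPM at 0 hpf. In these 3 genes stage IV libraries lay below all other oocyte and 0 hpf libraries. zgc:152936 and si:dkeyp-98a7.7 also fell at stage IV, from 2063 and 2696 TPM and from 1597 and 1002 TPM at stage I to between 129 and 620 TPM, but stood at only 44.0 to 53.3 and 103 to 129 TPM at 0 hpf. Falls were called too in mos (-1.32 ± 0.18), brca2 (-2.20 ± 0.27), buc2l (-1.10 ± 0.14), baxb, H2BE1 and pld6.

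Among the 5 largest rises, 4 are described here. wu:fi09b08 rose from 30.6 and 33.3 TPM to 423 and 600 TPM (3.94 ± 0.37, adjusted p = 0.000167), although its 0 hpf libraries stood at 3.90, 64.4 and 12.3 TPM. tmem54a rose from 35.2 and 29.4 TPM to 226 and 132 TPM (2.39 ± 0.28, adjusted p = 0.000401). Stages I and IV did not overlap in either gene. The others were in CT583728.1 and CT583728.11, both named after the same clone. CT583728.11 is among the paired transcripts with uncertain values, and CT583728.1 varied widely between the 0 hpf libraries. Of the oxidative phosphorylation genes 3 of 6 rose (atp5pd, ndufs4 and uqcrq), beside 11 of the 80 genes of the list and 16.6% of all tested genes, with uqcrq at 147 and 183 TPM at stage I and 345 and 328 TPM at IV, and the 6 had a median change of 0.98 beside 0.62 over the 80 genes of the list.

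**Figure D5:**
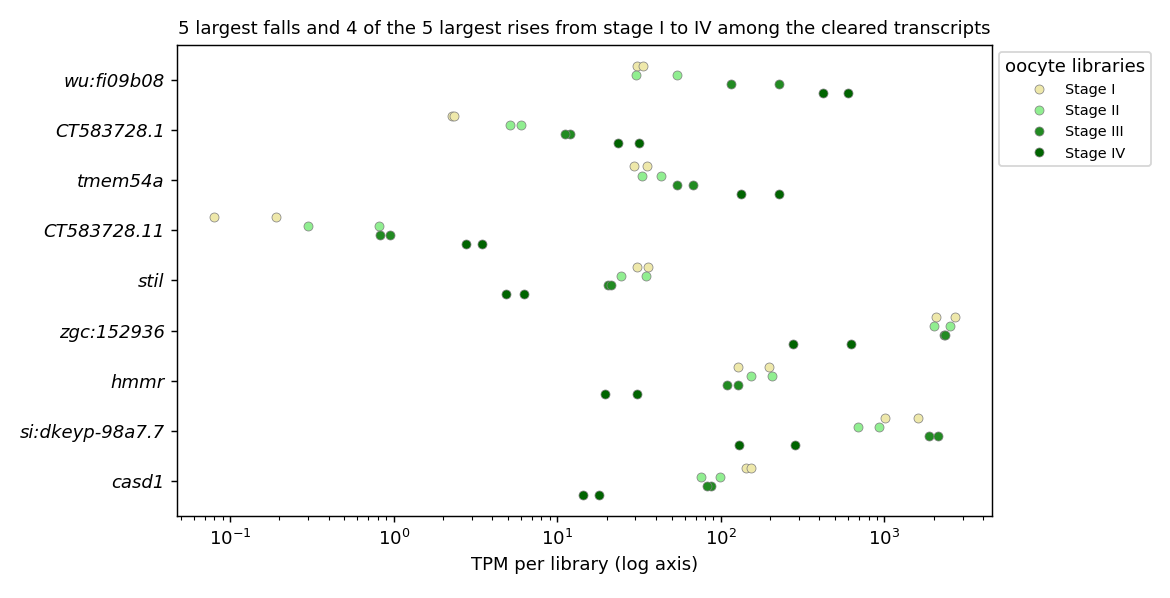
TPM per library on a log axis at oocyte stages I to IV for the 5 largest falls and 4 of the 5 largest rises from stage I to IV among cleared transcripts called in that comparison. In all 9 genes both stage IV libraries lie outside the range of the stage I libraries. The largest fall was in casd1, at 14.5 and 18.1 TPM at stage IV. The largest rise plotted was in wu:fi09b08, at 423 and 600 TPM.

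The cut at 0.25 has no natural edge. The genes just inside it were C7H16orf87 (0.2494), ca15b (0.2495), cpox (0.2496), alms1 (0.2496) and gnpda1 (0.2499), and those just outside were snx7 (0.2508), CR385024.1 (0.2514), nfatc2ip (0.2514), abcb5 (0.2516) and bscl2 (0.2516). All 3 libraries at 4 hpf were at or below 0.25 of the 2 hpf mean in 141 of the 315 genes, 2 of them in 163 and 1 in 11. bmp15, an oocyte growth factor gene, missed the rule at 0.2565.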

How the data were processed

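RNA levels of zebrafish embryos, oocytes and knockdown embryos came from 3 deposited tables of TPM, the authors' values, each library summing to 1000000. Per the submitters' processing notes, STAR 2.7.3a, RSEM and build danRer11 were used, and per the labels' protocols embryo and oocyte libraries were ribosomal RNA-depleted and stranded. The depth behind the TPM is unknown, and the 3 tables were normalised separately. Samples were grouped by title. The cleared transcripts and the gene lists were chosen with earlier results of these data known, and 10 lists were added after values were seen. Lists were matched by the deposited gene symbols, which all 315 genes have. The gene IDs of 298 of the 315 occur in the RefSeq-based names, which did not serve the matching. Genes were linked between tables by gene ID.

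Whole tables were fitted in limma 3.58.1 (R 4.3.3) as log2(TPM + 1), which understates changes of low genes. Variances were moderated along the mean, after keeping genes at 1 TPM or more in 3 libraries (2 for oocytes). P-values were adjusted by Benjamini and Hochberg over all genes tested. A call needed an adjusted p under 0.05 and, except in the knockdown, a 2-fold change. The fit was tested on simulated data: with 200 genes changed, a log2 change of 2 was recovered in 74% for oocyte stages I and IV and 96% for the knockdown, and one of 1 in 0% and 66%. In the real data 2667 genes were called higher and 2651 lower from stage I to IV. Recovery depends on how many genes change, so these shares need not hold there. Summaries used Python 3.11.15, pandas 2.3.3 and numpy 2.4.6. Alternatives varied the pseudocount, the filter, the scaling, the moderation, a replicate term, the rule's limits and single libraries.

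The genes named are the 12 with the lowest ratio of 4 to 2 hpf, the 12 highest at 0 hpf, the 5 largest called rises and falls in the knockdown and between oocyte stages I and IV, up to 4 of each list by level at 0 hpf, and the 5 on each side of the ratio limit. Other genes were named after their values were seen. Sequences of the transcripts and of their promoters were not used here. Results for some genes that the rule names are not reported here.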

Additional observations from a re-analysis of the deposited data

How the results depend on the processing

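The number of cleared transcripts, 315, was 66 with median-of-ratios scaling, 197 with a minimum of 40 TPM, 760 with a ratio limit of 0.333 and 150 with one of 0.2, and 237 to 518 with 1 library left out. Of oocyte calls, the 1 higher from I to II became 0 with a pseudocount of 5, no filter, median-of-ratios scaling, a replicate block or no mean trend, and 0 to 3 with 1 library left out. The 1 from II to III became 0 with a pseudocount of 5, no filter or no mean trend, 2 with median-of-ratios scaling and 0 to 0 with 1 library left out. The 11 called higher from III to IV became 6 with a pseudocount of 5 and 4 to 6 with 1 library left out, and the 27 lower became 17 to 28. The 11 became 7 without the 13 genes low at every oocyte stage with a 0 hpf mean over 5 times each oocyte mean. That alternative was chosen after seeing the data. Calls from I to IV stayed within 1.5 times their number in every alternative run. In the knockdown the 17 called higher became 4 with no filter, 8 with median-of-ratios scaling and 3 to 40 with 1 library left out, and the 2 lower became 1 with a pseudocount of 5, no filter or no mean trend, 4 with a filter of 5 TPM, 6 with median-of-ratios scaling and 0 to 4 with 1 library left out. Knockdown medians by later course, an analysis added after seeing the data, ranged over 0.21 to 0.55 (lower at 6 hpf), -0.181 to -0.078 (higher) and 0.15 to 0.33 (no call) with 1 library left out, and the second was -0.22 with median-of-ratios scaling and -0.086 with a pseudocount of 5. The cause of these shifts was not tested. Whether replicate numbers pair the samples could not be decided. Deviations from group means correlated above 0.1 in 1 of 3 same-numbered knockdown pairs, 2 of 12 oocyte pairs and 7 of 18 embryo pairs. With 2 libraries a stage each oocyte correlation occurs 2 times, and low correlations do not exclude pairing. With the replicate block 14 were called higher and 2 lower in the knockdown, and 33 and 52 from stage I to IV. The log2 changes of 17 genes with the largest called changes in the knockdown or from stage I to IV were recomputed: 178 values kept their side of the threshold and 20 lost it, with none reversed.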
